A study of Mus musculus with 6 samples.

Results

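Laminins are the cross-shaped proteins from which basement membranes are built, and nidogens are the glycoproteins that link them to collagen IV. Here 10 genes of this kind were followed, *Lama1*, *Lama2*, *Lama3*, *Lama4*, *Lama5*, *Lamb1*, *Lamb2*, *Lamc1*, *Nid1* and *Nid2*, found by symbol among the 44788 symbols of the count table. Bulk RNA-seq libraries of whole tail tendon from 3 wild-type (WT) and 3 *Mkx*-/- mice were compared. The mice are labelled C57BL/6 and 3-week-old, whereas the text of the study gives an age of 4 weeks for these tendons. Both groups share tissue, strain, age and library preparation. *Mkx*-/- mice lack Mohawk, a homeobox transcription factor of tendon, in every cell from conception, and their tendons form ectopic bone with age. The labels do not say whether each library came from 1 animal or from a pool, so p-values measure the spread between these libraries.

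A laminin is made of 1 alpha, 1 beta and 1 gamma chain, and the alpha chain decides which cell receptors it binds. In limb and tail tissue, laminins coat nerve fibres, blood vessels, muscle fibres and fat cells, while the collagen fibrils of tendon itself hold little of them. The main receptors are integrins and dystroglycan, and the latter binds laminin only through sugar chains that a dedicated set of enzymes builds.

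The proximal promoters of the beta chain pair and of *Nid1* are shown, because *Lamb2* and *Nid1* had the highest levels per length in WT and *Nid1* alone had a lower estimate in *Mkx*-/-. Of the 10 members, 5 (*Lama2*, *Lama5*, *Lamb1*, *Lamb2* and *Nid1*) had an entry in the RefSeq promoter table of GRCm38.p6, which covers 250 bases before to 50 bases after the start of a gene. *Lama1*, *Lama3*, *Lama4*, *Lamc1* and *Nid2* had none. The windows below lie at chr12:31265043-31265342 (plus strand) for *Lamb1*, chr9:108479612-108479911 (plus strand) for *Lamb2* and chr13:13437352-13437651 (plus strand) for *Nid1*, with every GC box (GGGCGG, or CCGCCC on the other strand) in capitals.
Lamb1: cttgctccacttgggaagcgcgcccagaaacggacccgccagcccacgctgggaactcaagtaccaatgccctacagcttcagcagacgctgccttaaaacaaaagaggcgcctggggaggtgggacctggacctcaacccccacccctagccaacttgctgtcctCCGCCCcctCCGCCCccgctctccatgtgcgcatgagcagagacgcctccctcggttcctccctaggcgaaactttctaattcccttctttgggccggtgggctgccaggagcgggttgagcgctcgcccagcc
Lamb2: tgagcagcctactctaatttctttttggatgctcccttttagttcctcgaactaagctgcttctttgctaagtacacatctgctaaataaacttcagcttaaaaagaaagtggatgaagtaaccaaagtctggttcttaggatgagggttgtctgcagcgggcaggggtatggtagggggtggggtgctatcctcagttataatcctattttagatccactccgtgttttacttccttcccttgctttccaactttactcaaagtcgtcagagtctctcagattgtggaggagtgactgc
Nid1: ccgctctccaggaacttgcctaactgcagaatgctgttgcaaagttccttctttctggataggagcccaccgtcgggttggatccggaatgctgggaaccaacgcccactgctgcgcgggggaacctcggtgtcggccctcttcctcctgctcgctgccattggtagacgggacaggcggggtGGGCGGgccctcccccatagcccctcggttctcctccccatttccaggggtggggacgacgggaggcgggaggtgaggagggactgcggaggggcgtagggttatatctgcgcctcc
The *Lamb1* window held 2 GC boxes, 63.7% G and C, and an observed over expected CpG ratio of 0.615. The *Lamb2* window held 0 GC boxes, 44.0% G and C, and a CpG ratio of 0.276. For *Nid1* there was 1 GC box, with 64.7% G and C and a CpG ratio of 0.64. *Lama5* held 4 GC boxes at 72.7% G and C, and *Lama2* held 1 at 50.3%. A GC box on either strand occurred in 35.7% of all 32851 promoters of this length, whose median was 52.7% G and C with a CpG ratio of 0.384. A TATAAA motif, on either strand, was in 13.6% of promoters and in none of the 5 windows. CCAAT, on either strand, was in 37.4% of promoters and in the *Lamb1* and *Nid1* windows, in *Nid1* as its reverse complement ATTGG. These matches describe letters only.

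The libraries held 10835070 to 14160301 counts, and 14550 genes passed the low count filter. *Mkx*, the targeted gene, fell from 135 to 144 normalized CPM (counts scaled to library size and by TMM) in WT to 38.9 to 56.8 in *Mkx*-/- (log2 fold change -1.60, SE 0.161, adjusted p = 0.00183, edgeR's quasi-likelihood test with Benjamini-Hochberg adjustment). WT replicate 3 was the single library with reads of the Y-linked gene *Ddx3y* (301 counts, against 0 in each of the others), and its *Xist* count was 1. *Mkx*-/- replicate 3 stood apart in smooth muscle genes, and skeletal muscle genes varied widely within both groups, lowest in WT replicate 2 and highest in *Mkx*-/- replicate 1. Values without each library are given where they change a result. In whole tissue, fewer cells of a type and less RNA per cell cannot be told apart.

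In *Mkx*-/- tendons, 8 of the 9 tested laminin and nidogen genes had higher estimates than in WT, by log2 fold changes of 0.32 to 0.93, and *Nid1* had a lower one. None passed an adjusted p of 0.05 in edgeR's quasi-likelihood test, against 3.18% of all tested genes that passed it as higher and 2.26% as lower. At an unadjusted p under 0.05, 7 of the 9 were higher, against 12.5% of all tested genes, and DESeq2 called 2, *Lama3* and *Lamc1*, as higher at its own adjusted p, against 4.72% of the genes it tested. The median log2 fold change of the 9 was 0.44, and that of all tested genes was -0.0037. The groups did not overlap, with every *Mkx*-/- library above every WT library, for 7 of the 9, against 14.6% of all tested genes. *Lama1* was too low to be tested. Without TMM, scaled by library size alone, the median of all genes itself shifted to 0.25, 7 members and 9.33% of all genes passed as higher, and the median of the members lay 0.44 above that of all genes.

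**Figure D1:**
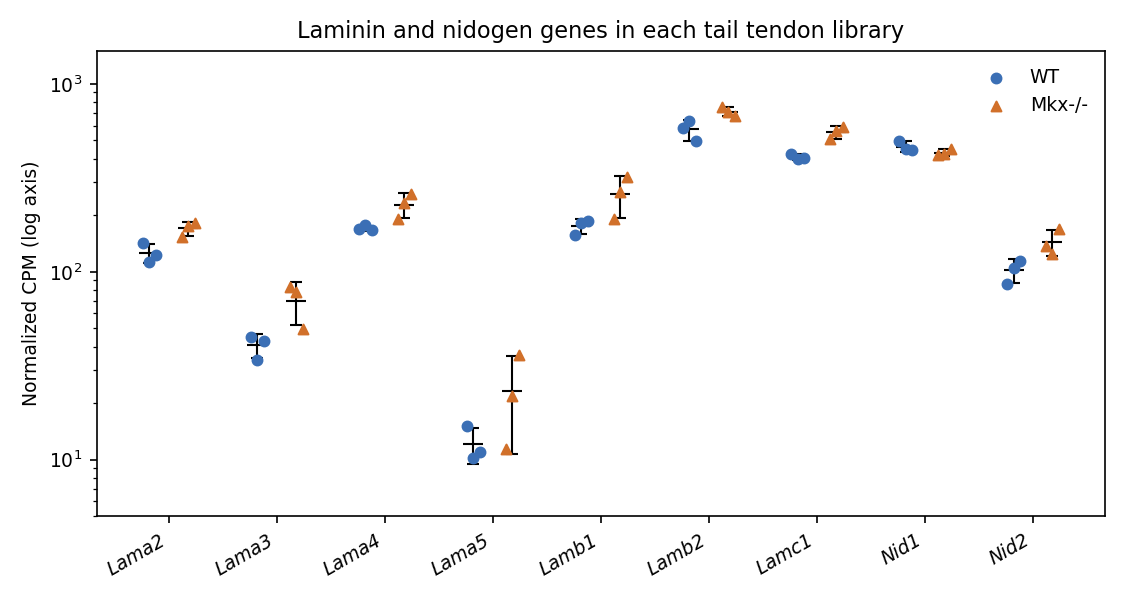
Normalized CPM (log axis) of the 9 tested laminin and nidogen genes in each library, WT as circles and *Mkx*-/- as triangles, with horizontal marks at the mean and error bars of 1 SD (n = 3 per group). The *Mkx*-/- libraries lie above all WT libraries for 7 genes, while *Lama5* and *Nid1* overlap.

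Of the alpha chains, *Lama4* had the highest level per length, and *Lama4* and *Lama2* gave most of the reads. *Lama4*, a chain of blood vessel and peripheral nerve laminins (chromosome 10, 38685321 to 38829994, plus strand, mm9), stood at 169, 177 and 166 CPM in WT and at 190, 233 and 260 CPM in *Mkx*-/-. The lowest *Mkx*-/- library was above the highest WT library, and the log2 fold change was 0.42 (SE 0.143, 95% interval 0.09 to 0.74, edgeR adjusted p = 0.129). *Lama2*, the chain of the muscle fibre and Schwann cell basement membrane whose loss causes congenital muscular dystrophy (chromosome 10, 26701094 to 27336748, minus strand), had 142, 113 and 124 CPM in WT and 154, 175 and 182 CPM in *Mkx*-/-. Its groups were also apart, with WT replicate 1 closest to the *Mkx*-/- libraries, and its log2 fold change was 0.43 (SE 0.135, 95% interval 0.12 to 0.74, edgeR adjusted p = 0.104).

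*Lama3*, an alpha chain of epithelial laminins that anchor the epidermis (chromosome 18, 12492533 to 12741522, plus strand), had 45.0, 34.0 and 42.9 CPM in WT and 82.5, 78.3 and 49.5 CPM in *Mkx*-/-. Replicate 3 was the lowest of the *Mkx*-/- libraries, close to WT, while the other two were well above. The log2 fold change was 0.79 (SE 0.208, 95% interval 0.31 to 1.26). The adjusted p was 0.069 by edgeR and 0.0132 by DESeq2. Without *Mkx*-/- replicate 3 the log2 fold change was 0.98 and passed edgeR's test (adjusted p = 0.0271).

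*Lama5*, a widespread chain of epithelial and vessel laminins (chromosome 2, 179911078 to 179960564, minus strand), had 15.1, 10.2 and 11.0 CPM in WT and 11.4, 21.9 and 36.0 CPM in *Mkx*-/-. *Mkx*-/- replicate 1 lay inside the WT range, so the groups overlapped. Its log2 fold change, 0.93 (SE 0.369, 95% interval 0.09 to 1.78, edgeR adjusted p = 0.18), had the widest interval of the 9. It was 0.46 without *Mkx*-/- replicate 3 and 1.23 without *Mkx*-/- replicate 1, and in the latter case it passed the test.

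*Lama1*, the chain of the earliest embryonic laminin (chromosome 17, 68046605 to 68171985, plus strand), had 0, 0 and 1 counts in WT and 0, 1 and 2 counts in *Mkx*-/-. No library exceeded the limit of 3 counts that a count of 0 allows, which is 0.211 to 0.294 CPM per library, and no difference was detectable at this depth.

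The make-up of the alpha chain reads did not separate the genotypes. *Lama4* gave 49.0% ± 3.78 of them in WT and 46.2% ± 2.95 in *Mkx*-/- (SD, n = 3), with overlapping groups (exact two-sided permutation test, p = 0.5, adjusted over the 5 chains 0.7). The *Lama3* share was 11.6% ± 1.26 in WT and 14.5% ± 4.80 in *Mkx*-/-, where it ran from 9.38% in replicate 3 to 18.8% in replicate 1 (exact permutation p = 0.4, adjusted 0.7). The difference of 2.95 percentage points dropped to 0.801 when *Mkx*-/- replicate 1 was left out and grew to 5.54 when replicate 3 was. With 3 libraries against 3, the smallest p this test allows is 0.1.

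Of the beta chains, *Lamb2* had the highest level per length of all laminin and nidogen genes in both genotypes. *Lamb2*, the beta chain of the neuromuscular synapse, the kidney filter and the vessel wall (chromosome 9, 108382193 to 108392861, plus strand), had 586, 637 and 494 CPM in WT and 751, 709 and 676 CPM in *Mkx*-/-. The groups did not overlap, though WT replicate 2 lay near *Mkx*-/- replicate 3. The log2 fold change was 0.32 (SE 0.144, 95% interval -0.01 to 0.65, edgeR adjusted p = 0.241), and it was the smallest of the 8 higher estimates.

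*Lamb1*, the beta chain of most other laminins (chromosome 12, 31950099 to 32014509, plus strand), had 157, 181 and 185 CPM in WT and 190, 267 and 321 CPM in *Mkx*-/-. *Mkx*-/- replicate 1 was only just above WT replicate 3, and replicate 3 was the highest. The log2 fold change was 0.57 (SE 0.194, 95% interval 0.13 to 1.01, edgeR adjusted p = 0.125). The log2 ratio of *Lamb1* to *Lamb2* counts was -1.71 ± 0.26 in WT and -1.49 ± 0.46 in *Mkx*-/- (SD, n = 3), a difference of 0.22 that did not exceed the spread (exact two-sided permutation test, p = 0.6). The difference was 0.011 without *Mkx*-/- replicate 3, 0.47 without *Mkx*-/- replicate 1, 0.37 without WT replicate 3 and 0.12 without WT replicate 1.

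*Lamc1*, the gamma chain that almost every laminin outside the skin carries (chromosome 1, 155066052 to 155179916, minus strand), had 424, 399 and 404 CPM in WT and 509, 560 and 593 CPM in *Mkx*-/-. The WT libraries lay close together and all below those of *Mkx*-/-. The estimated log2 fold change, 0.44, had the second smallest SE of the 9 genes (SE 0.126, 95% interval 0.15 to 0.73). The adjusted p was 0.0837 by edgeR and 0.0123 by DESeq2.

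The nidogen pair had estimates of opposite sign. *Nid1*, the major nidogen (chromosome 13, 13529869 to 13604542, plus strand), had 498, 448 and 443 CPM in WT and 418, 425 and 450 CPM in *Mkx*-/-. The groups overlapped, and the log2 fold change was -0.10 (SE 0.124, 95% interval -0.39 to 0.18, edgeR adjusted p = 0.673). The sign of this estimate depended on scaling, since it was 0.15 with library size alone.

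*Nid2*, the second nidogen (chromosome 14, 20570479 to 20631009, plus strand), had 85.8, 105 and 115 CPM in WT and 138, 124 and 169 CPM in *Mkx*-/-. All *Mkx*-/- libraries were above WT, and the log2 fold change was 0.50 (SE 0.163, 95% interval 0.12 to 0.87, edgeR adjusted p = 0.117). An exon of *Nid2* overlaps one of *2700060E02Rik* on the opposite strand by 386 bases, and since strand handling of the counts is not stated, reads there cannot be told apart. *2700060E02Rik* itself ran from 21.7 to 26.7 CPM in WT and from 20.2 to 21.7 CPM in *Mkx*-/-.

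The ratio of *Nid1* to *Nid2* counts does not depend on scaling. Its log2 was 2.54, 2.09 and 1.95 in WT and 1.60, 1.77 and 1.41 in *Mkx*-/-. Every *Mkx*-/- library was below every WT library, so that *Nid1* had 4.57 counts for each *Nid2* count in WT and 3.02 in *Mkx*-/- (geometric means). The difference of -0.60 reached the smallest p that 3 libraries against 3 allow (exact two-sided permutation test, p = 0.1).

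Per kilobase of the longest annotated transcript, the scale on which genes can be set side by side, *Lamb2* led in WT at 102 ± 13.0 CPM per kb (SD, n = 3). It was followed by *Nid1* (76.6 ± 5.07), *Lamc1* (53.6 ± 1.73), *Lamb1* (30.2 ± 2.65), *Lama4* (28.3 ± 0.966), *Nid2* (20.9 ± 3.02), *Lama2* (13.0 ± 1.51), *Lama3* (3.93 ± 0.567) and *Lama5* (1.06 ± 0.232). Only *Lamb1* and *Lama4* had overlapping ranges among these neighbours.

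In *Mkx*-/-, *Lamb2* stood at 127 ± 6.72 CPM per kb and *Lamc1* at 72.7 ± 5.55, overlapping *Nid1* at 71.3 ± 2.82. *Lamb1* (44.8 ± 11.4) overlapped *Lama4* (37.7 ± 5.83), and *Lama4* overlapped *Nid2* (29.4 ± 4.74), while *Lama2* (17.5 ± 1.51), *Lama3* (6.78 ± 1.74) and *Lama5* (2.03 ± 1.09) followed with ranges of their own. Thus the order of the mean levels differed between genotypes only in the places of *Nid1* and *Lamc1*.

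Summed per length, the alpha chains came to 46.2 ± 1.73 CPM per kb in WT and 64.0 ± 6.95 in *Mkx*-/-. The gamma chains *Lamc1* and *Lamc3* together came to 54.2 ± 1.98 and 73.1 ± 5.61. These 2 sums were near each other in both genotypes, while the beta chains came to 132 ± 12.4 and 172 ± 4.66 CPM per kb. All 3 chain sums were higher in every *Mkx*-/- library than in any WT library, by 1.38, 1.35 and 1.30 times for alpha, gamma and beta. The nidogen sum, 97.5 ± 2.26 in WT and 101 ± 7.34 in *Mkx*-/-, overlapped between the groups.

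**Figure D2:**
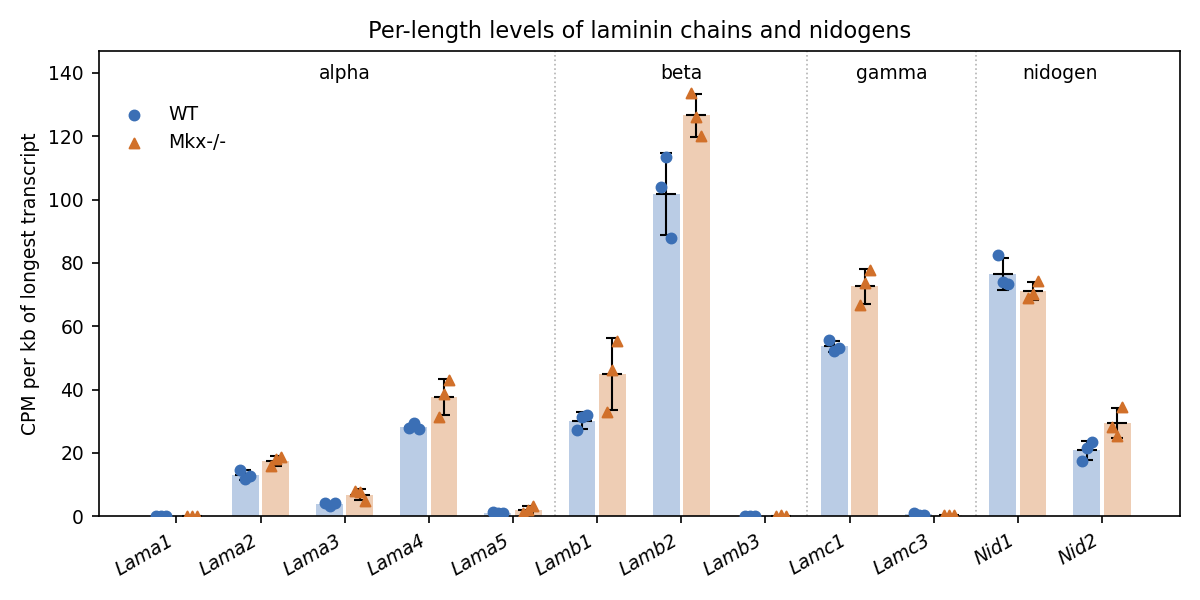
CPM per kb of the longest transcript for laminin chains and nidogens, bars at the mean of 3 libraries with error bars of 1 SD, WT in blue with circles and *Mkx*-/- in orange with triangles. *Lamb2* is the tallest in both groups (102 and 127), and *Lama1*, *Lamb3* and *Lamc3* lie near 0.

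A pair of laminin chains outside the followed set, *Lamb3* and *Lamc3*, were low. *Lamb3* had 8, 2 and 6 counts in WT and 5, 23 and 4 in *Mkx*-/-, too few to be tested. *Lamc3* ran from 1.92 to 5.36 CPM in WT and from 1.65 to 3.09 in *Mkx*-/- (log2 fold change -0.60, SE 0.407, edgeR adjusted p = 0.433), and its count is uncertain because an exon overlaps *Gm13441* on the opposite strand.

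The collagens of the basement membrane, the other network to which nidogens bind, divided by chain. Of 8 listed genes, 7 were tested. In edgeR's test 3 rose and 4 fell, against 3.18% of all tested genes higher and 2.26% lower. All 7 had groups that did not overlap, against 13.6% of all tested genes lower and 14.6% higher. *Col4a1*, which with *Col4a2* forms the collagen IV of nearly every basement membrane, had 307, 372 and 341 CPM in WT and 557, 662 and 807 CPM in *Mkx*-/- (log2 fold change 0.99, SE 0.169, adjusted p = 0.0168). *Col4a2* rose by 1.10 (SE 0.161, adjusted p = 0.00902), and the nearest *Mkx*-/- library was at 711 CPM against a highest WT library of 426. *Col18a1*, a proteoglycan-like collagen of vessel and epithelial basement membranes and the source of endostatin, rose by 1.86 (SE 0.231, adjusted p = 0.00416), from 35.8 to 48.4 CPM in WT to 116 to 204 CPM.

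The collagens that fell included the chains of the specialised collagen IV of kidney and lung. *Col4a3* (log2 fold change -1.66, SE 0.31, adjusted p = 0.0226) and *Col4a4* (-1.10, SE 0.222, adjusted p = 0.0303) stood at or below 8.27 CPM in every library. *Col4a5* fell from 21.0 ± 2.17 CPM in WT to 11.7 ± 2.41 CPM (SD, n = 3, log2 fold change -0.85, SE 0.178, adjusted p = 0.0328). *Col15a1*, a relative of *Col18a1* named here after its values were seen, fell from 482 to 694 CPM to 317 to 408 CPM (log2 fold change -0.82, SE 0.184, adjusted p = 0.0418). DESeq2 called the 4 as lower too, against 3.46% of the genes it tested. Without WT replicate 1 the collagens called were again 3 higher and 4 lower, and the calls over all genes numbered 539 higher and 439 lower. With any other single library left out, fewer collagens passed, as did fewer of all genes. Without WT replicate 3, 1 collagen was called higher and 0 lower, while calls over all genes went from 463 higher and 329 lower to 117 and 127. The log2 fold changes there were 0.97 for *Col4a1*, 1.05 for *Col4a2*, -1.45 for *Col4a3*, -1.21 for *Col4a4*, -0.87 for *Col4a5*, -0.77 for *Col15a1* and 1.81 for *Col18a1*. The number lower was 1 without WT replicate 2, 1 without *Mkx*-/- replicate 1, 0 without *Mkx*-/- replicate 2 and 2 without *Mkx*-/- replicate 3, and 1 with scaling by library size alone, where the calls lower over all genes numbered 131, 209, 144, 137 and 197.

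**Figure D3:**
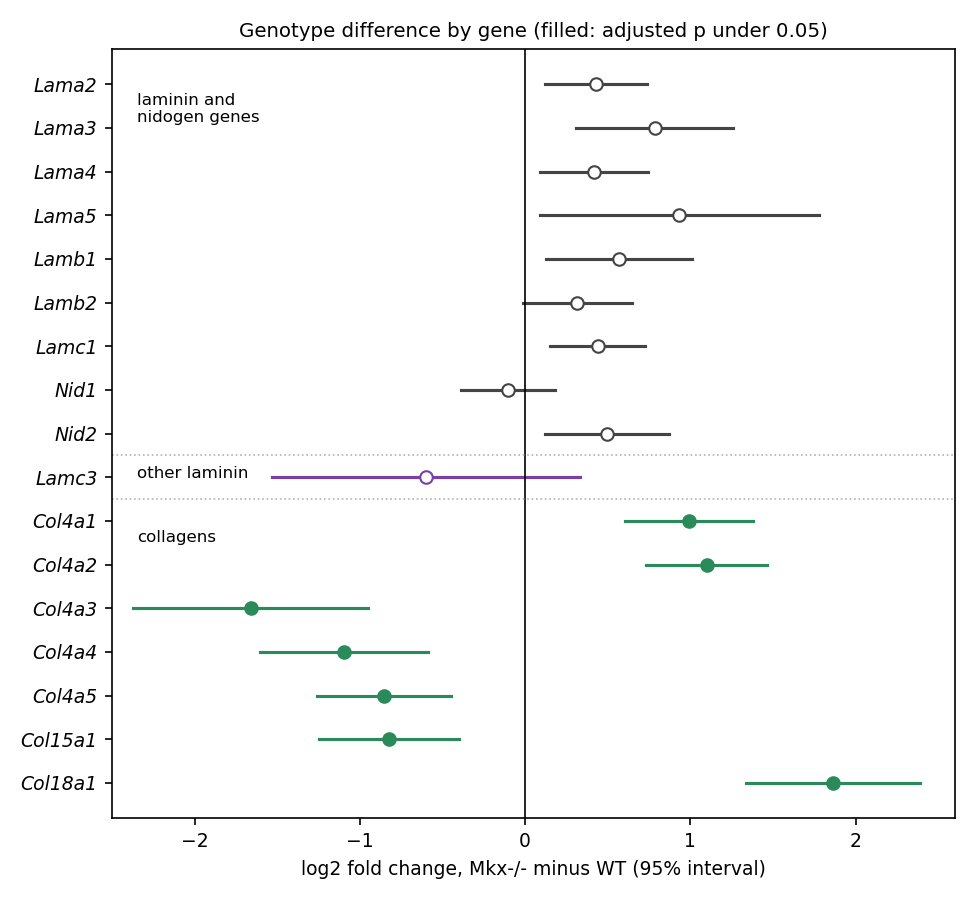
Log2 fold change (*Mkx*-/- minus WT) with 95% intervals from edgeR for the 9 tested laminin and nidogen genes, *Lamc3* and 7 basement membrane collagens, filled where the adjusted p is under 0.05. The laminin and nidogen points lie between -0.10 and 0.93 and are all open, as is *Lamc3* at -0.60, and the filled collagens run from -1.66 to 1.86.

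Of 16 other basement membrane proteins, all tested, 2 rose and 2 fell in edgeR's test, against 3.18% of all tested genes higher and 2.26% lower. *Npnt*, a ligand of integrins, rose by 0.97 on the log2 scale (SE 0.149, adjusted p = 0.0111 by edgeR), from 24.8 to 26.4 CPM to 41.5 to 59.0 CPM. *Smoc2*, a calcium-binding matrix protein, rose by 0.97 (SE 0.225, edgeR adjusted p = 0.0465). *Fbln1*, a fibulin that binds laminin and nidogen, fell from 49.0 to 88.9 CPM to 22.2 to 23.1 CPM (log2 fold change -1.58, SE 0.207, edgeR adjusted p = 0.00525), and *Smoc1*, the paralog of *Smoc2*, had -2.36 (SE 0.334, edgeR adjusted p = 0.00771). *Hspg2*, the perlecan gene and the most abundant of the list, had 1576 to 1960 CPM in WT and 1828 to 2009 CPM in *Mkx*-/-, and differed by 0.16 on the log2 scale (adjusted p = 0.595 by edgeR). The number that rose was 1 without WT replicate 1, 0 without WT replicate 2, 0 without WT replicate 3, 1 without *Mkx*-/- replicate 2 and 1 without *Mkx*-/- replicate 3, where 3.63%, 0.909%, 0.785%, 1.25% and 1.43% of all genes passed as higher. Over these settings the log2 fold change of *Npnt* ran from 0.92 to 1.09 and that of *Smoc2* from 0.67 to 1.03.

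Of 12 laminin receptor genes, 10 had higher estimates, and none passed an adjusted p of 0.05 in edgeR. At an unadjusted p under 0.05, 4 of the 12 were higher, against 12.5% of all tested genes. DESeq2 called 2 as higher, against 4.72% of the genes it tested. The 4, named after their values were seen, were *Itga7*, the laminin receptor subunit of muscle (log2 fold change 0.81, SE 0.283, adjusted p = 0.133), *Itgb4*, the integrin subunit of hemidesmosomes and Schwann cells (0.73, SE 0.222, adjusted p = 0.0986), *Dag1*, the dystroglycan gene (0.42, SE 0.145, adjusted p = 0.133), and *Bcam*, a receptor for the *Lama5* product (1.16, SE 0.383, adjusted p = 0.116), all by edgeR. *Dag1* stood at 275 to 298 CPM in WT and 321 to 435 CPM in *Mkx*-/-, without overlap. *Sdc3*, the most abundant of the list, had 217 to 503 CPM in WT and 284 to 439 CPM in *Mkx*-/- with a log2 fold change of -0.01. Without *Mkx*-/- replicate 1, 2 receptors passed as higher, against 2.63% of all genes. Without *Mkx*-/- replicate 3, none passed and the log2 fold change was 0.65 for *Bcam* and 0.48 for *Itga7*.

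Of 13 genes for the sugar chains by which dystroglycan holds laminin, 12 were tested, 5 had higher estimates and 7 lower, and none passed in edgeR. At an unadjusted p under 0.05, 2 of the 12 were higher and 2 lower, against 12.5% and 10.1% of all tested genes. *Pomgnt1*, the most abundant, had 26.2, 35.6 and 37.1 CPM in WT and 49.1, 42.9 and 55.1 CPM in *Mkx*-/- (log2 fold change 0.57, SE 0.166, adjusted p = 0.0852 in edgeR and 0.0474 in DESeq2). The median log2 fold change was 0.09 over the receptors and -0.08 over the sugar chain genes, against 0.44 over the laminin and nidogen genes and -0.0037 over all tested genes.

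Markers of the cell types that lay down these laminins also differed between the genotypes, and their part in the results was not tested. All 9 Schwann cell markers had higher estimates in *Mkx*-/-, with a summed level of 2478 to 3417 CPM in WT and 3992 to 7348 CPM in *Mkx*-/-. *Mbp*, a myelin protein that gave most of this sum, ran from 1643 to 2363 CPM in WT and from 2822 to 5259 CPM in *Mkx*-/-. It did not pass edgeR's test (log2 fold change 0.99, adjusted p = 0.0678), while its adjusted p by DESeq2 was 0.00113. *Ncmap* was the only 1 of the 9 that passed edgeR's test (log2 fold change 0.96, adjusted p = 0.0468), against 3.18% of all tested genes higher. At an unadjusted p under 0.05 in edgeR, all 9 were higher, against 12.5% of all tested genes. DESeq2 called 8 as higher, against 4.72% of the genes it tested. For 7 of the 9, every *Mkx*-/- library lay above WT, against 14.6% of all tested genes. The 12 endothelial markers summed to 75.9 to 96.3 CPM in WT and 139 to 193 CPM in *Mkx*-/-, and 10 had higher estimates. Of these, *Erg* rose by a log2 fold change of 2.12 and *Ecscr* by 1.43 (edgeR adjusted p = 0.00195 and 0.00227). These were the 2 of the 12 that passed, against 3.18% of all tested genes higher. At an unadjusted p under 0.05 in edgeR, 8 of the 12 were higher, against 12.5% of all tested genes. DESeq2 called 4 as higher, against 4.72% of the genes it tested. For 7 of the 12, every *Mkx*-/- library lay above WT, against 14.6% of all tested genes. *Tek*, the most abundant of the list and a receptor of angiopoietins, ran from 22.8 to 30.9 CPM in WT and from 25.1 to 27.8 CPM in *Mkx*-/- (log2 fold change 0.02, edgeR adjusted p = 0.96). All 12 skeletal muscle markers had higher estimates, with sums of 38.0 to 409 CPM in WT and 543 to 3047 CPM in *Mkx*-/-. In edgeR's test 2 of the 12 passed, against 3.18% of all tested genes higher. All 12 were higher at an unadjusted p under 0.05 in edgeR, against 12.5% of all tested genes. DESeq2 called 6 as higher, against 4.72% of the genes it tested. For 10 of the 12, every *Mkx*-/- library lay above WT, against 14.6% of all tested genes.

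The 10 mural cell markers summed to 356 to 415 CPM in WT and to 334, 370 and 1155 CPM in *Mkx*-/-, where the sum of replicate 3 stood alone. Singly, 8 of the 10 had higher estimates and 2 lower, with a median log2 fold change of 1.03. In edgeR none passed, and 4 were higher at an unadjusted p under 0.05, against 12.5% of all tested genes. DESeq2 called 2 as higher, against 4.72% of the genes it tested. For 3 of the 10, every *Mkx*-/- library lay above WT, against 14.6% of all tested genes. The 9 keratinocyte markers summed to 16.5 to 35.6 CPM in WT and stood above that range in every *Mkx*-/- library, at up to 46.2 CPM. Of the 8 tested, 7 had higher estimates and 1 lower. For 5 of the 8, every *Mkx*-/- library lay above WT, against 14.6% of all tested genes. *Krtdap* was the 1 that passed edgeR's test as higher (log2 fold change 1.65, adjusted p = 0.0173), against 3.18% of all tested genes. *Trp63*, the most abundant of the list, was the 1 with a lower estimate, with 10.6 to 19.0 CPM in WT and 4.44 to 9.98 CPM in *Mkx*-/- (log2 fold change -1.02, SE 0.318, adjusted p = 0.102 by edgeR and 0.0332 by DESeq2). The 6 adipocyte markers summed to at most 2.25 CPM in any library and none could be tested. The summed level of the 8 tendon markers overlapped between the groups, and most of it came from *Col1a1* (96452 to 225743 CPM, in sums of 128406 to 249718). Of the 8, 5 overlapped singly, as did 10442 of all 14550 tested genes. In edgeR's test 1 rose and 1 fell, against 3.18% of all tested genes higher and 2.26% lower. The 1 that fell was *Mkx*, the targeted gene, so its fall was set by the genotype and tells nothing of the other markers. *Thbs4*, a thrombospondin of tendon matrix, rose from 3893 to 5095 CPM in WT to 9856 to 12054 CPM (log2 fold change 1.26, SE 0.197, edgeR adjusted p = 0.0118). *Fmod* (fibromodulin, a collagen-binding proteoglycan of tendon) stood at 15622 to 19825 CPM in the 6 libraries.

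Within the *Mkx*-/- group, *Lama2*, *Lama4*, *Lama5*, *Lamb1*, *Lamc1* and *Nid1* were all lowest in replicate 1 and highest in replicate 3, and so were the Schwann cell, endothelial and mural cell sums. *Lamb2* and *Lama3* had the opposite order, highest in replicate 1 and lowest in replicate 3, as had the skeletal muscle sum. With 3 libraries this is a description of order only. The sum of the 10 laminin and nidogen genes was 1985 to 2121 CPM in WT and 2443 to 2736 CPM in *Mkx*-/-, a ratio of means of 1.25. The same ratio was 7.44 for the skeletal muscle sum, 1.94 for the Schwann cell sum and 1.85 for the endothelial sum. It was 1.61 for the mural cell sum, 1.52 for the keratinocyte sum and 0.70 for the tendon marker sum.

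**Figure D4:**
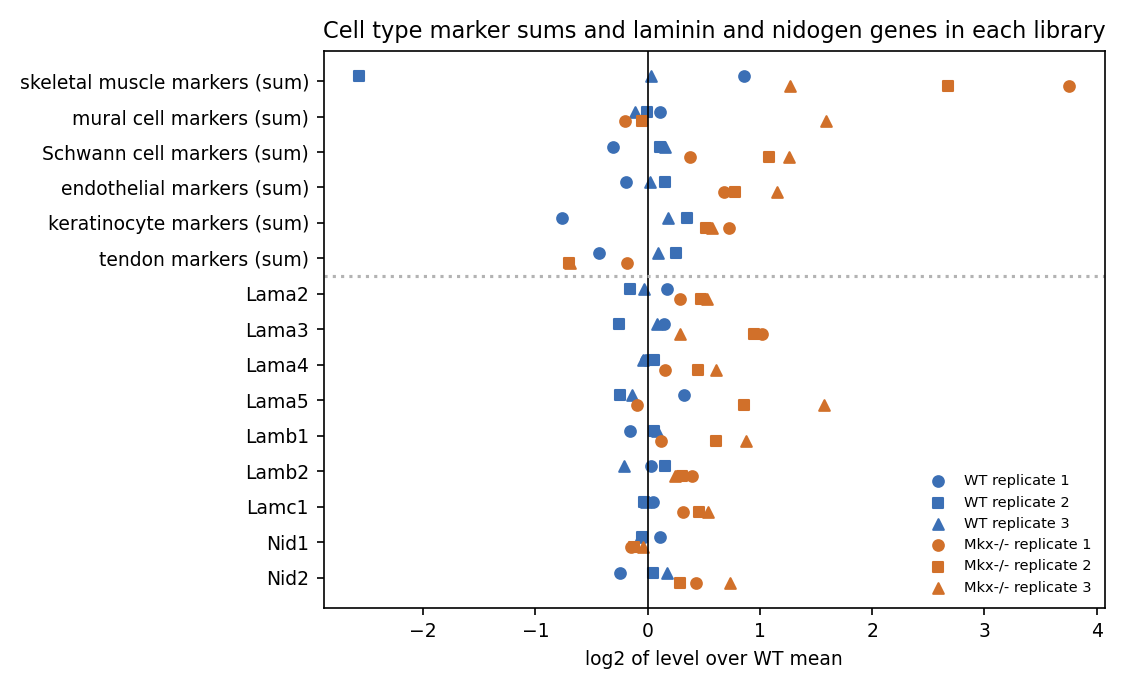
Log2 of the level in each library over the WT mean, for summed markers of 6 cell types (top) and for 9 laminin and nidogen genes (bottom), WT in blue and *Mkx*-/- in orange, with the marker shape giving the replicate. Schwann and endothelial sums lie to the right of WT in all 3 *Mkx*-/- libraries, the mural cell sum in replicate 3 alone (1.59).

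The genes most like the 3 most abundant members in their pattern were taken from the 10294 tested genes averaging 5 CPM or more, by Pearson's r of log2 CPM over the 6 libraries, as a description, since all values come from the same 6 libraries. For *Lamb2* these were *Ppp1r13l* (r = 0.995), *A430005L14Rik* (0.986) and *Pbxip1* (0.983). For *Lamc1* they were *Gng7* (0.999), *Sfrp4* (0.997) and *Cd9-ps* (0.991), and for *Nid1* they were *Poglut1* (0.992), *Gapvd1* (0.990) and *Tbc1d12* (0.983). An r over 0.9 was reached by 1.80% of the candidates for *Lamb2*, 4.27% for *Lamc1* and 1.04% for *Nid1*.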

How the data were processed

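Bulk RNA-seq of tail tendon from 3 WT and 3 *Mkx*-/- mice was analysed. Single-cell and rat experiments were not analysed here. Libraries were made with a total RNA kit and sequenced on the Ion Proton system. The authors deposited raw counts per gene symbol, whole numbers without normalization, made by trimming adaptors, dropping reads of low quality and running MapSplice on mm9. The counting program, annotation and strand handling are not given in the sources used here. Column names match the sample labels, and 0 columns were left unused. The depth was 10835070 to 14160301 counts per library, and replicates differed by more than sampling noise (chi-square over degrees of freedom 7.59 to 36.4).

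From the deposited counts, edgeR 4.0.16 (R 4.3.3) gave TMM-normalized CPM and fold changes (filterByExpr, quasi-likelihood fit on genotype, Benjamini-Hochberg adjustment over 14550 genes, threshold 0.05). The alternatives were DESeq2 1.42.0, RLE, upper-quartile and library size scaling, low count filters set at 1 in any library or 10 in all, a robust fit, a replicate block and leaving out each of 6 libraries. Shares and ratios were tested by exact permutation over libraries. The edgeR and DESeq2 steps were tested on simulated data. Levels per kb and mm9 coordinates used the GENCODE annotation of that build, and promoters came from RefSeq.

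The members and the gene lists were chosen with earlier results of these data known. Some results are not reported here, being withheld for evaluation, and the lists omit those genes. Genes named were all members, *Lamb3* and *Lamc3*, *Mkx*, genes of the basement membrane and receptor lists past the test (at most 6 per list) with the most abundant of each list, up to 3 abundant markers per cell type, and the 3 genes most like each of the 3 most abundant members. *Ddx3y*, *Xist*, *2700060E02Rik*, *Gm13441*, *Col15a1* and the receptors other than *Sdc3* were named after their values were seen.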

Additional observations from a re-analysis of the deposited data

How the results depend on the processing

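Of the 9 tested laminin and nidogen genes, 0 passed as higher in edgeR. The number was 2 with DESeq2 (*Lama3* and *Lamc1*), 7 with library size alone and 2 with a filter of 1 count in any library (*Lama3* and *Lama5*). Leaving out 1 library gave 0 to 1, with *Lama5* called without *Mkx*-/- replicate 1 and *Lama3* without *Mkx*-/- replicate 3. No member passed as lower under any of the 14 alternatives. *Nid1* turned to 0.15 with library size alone. *Sdc3* turned to 0.26 with library size alone and 0.042 with the replicate block, and -0.29 to 0.22 with a library left out. The *Lama1* share of alpha chain reads differed by 0.00686 percentage points, and by -0.000855 to 0.0146 with a library left out. Collagens called higher numbered 1 to 3 and lower 0 to 4 with a library left out, and 3 higher and 1 lower with library size alone. Partners called higher numbered 0 to 2 with a library left out. Receptors called higher numbered 2 with DESeq2, 4 with library size alone, 3 with the 1 count filter and 0 to 2 with a library left out. Dystroglycan glycosylation genes called higher numbered 1 with DESeq2, 1 with library size alone and 1 with the 1 count filter. Over all genes, 4.72% passed as higher with DESeq2, 9.33% with library size alone and 3.76% with the 1 count filter. With a library left out, 0.785% to 3.63% did. The cause of these changes was not tested.

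The deviations of same-numbered libraries from their group means correlated at 0.03, -0.21 and 0.30. Libraries of different number were not compared, so these values cannot tell whether the numbers pair the libraries. With the replicate block, 0 members were called. Of the collagens 3 were called higher and 1 lower, and of the partners 1 higher and 2 lower. Over all genes, 264 (1.81%) passed as higher and 170 as lower. A depth of 10835070 to 14160301 counts left *Lama1* and *Lamb3* untestable.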
